A study of Homo sapiens with 8 samples.

Results

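The 6 libraries of HaCaT keratinocytes that expressed a CARD14 variant (R820W, N737H or I593T, 2 libraries each) were set against the 2 libraries that expressed wild-type (WT) CARD14, out of 8 libraries in all. The libraries carry the letters A and B, with 1 library of each group per letter, and each variant library was compared with the WT library of its own letter, which gives 6 comparisons per gene. A gene was tested if it had 10 or more counts in at least 2 of the 8 libraries, which 14918 of 28518 genes met. Of these, 2178 lay on the same side of WT in all 6 comparisons, 824 above WT and 1354 below it, and the other 12740 were mixed.

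All 8 libraries share one background, the immortalised keratinocyte line HaCaT with its own CARD14 gene knocked out. Cells received a plasmid that encodes R820W, N737H, I593T or WT CARD14, joined to eGFP by a self-cleaving peptide. Cells positive for GFP were collected by sorting at 24 h, and their RNA was made into libraries. The series asked which pathways the variants, which it calls hypomorphic, drive differently from WT CARD14. Expression is from a plasmid in cells of 1 line. Whether that line is a single clone is not given in the sources used here, and a library without CARD14 plasmid was not analysed here.

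CARD14 is a scaffold of epithelial signalling. When activated it gathers BCL10 and the protease MALT1 into a filamentous complex that recruits TRAF6 and leads to NF-kB and AP-1 activity. In keratinocytes this pathway is known for driving chemokines and cytokines, and inherited changes in CARD14 are linked to psoriasis, pityriasis rubra pilaris and atopic skin disease. The series title places the transcription factor MYC downstream of CARD14.

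Total counts ranged from 17892608 to 24629860 per library. None of 13 keratinocyte markers had a mean under 1 CPM (counts scaled to a common library size), and their summed level was 5500 to 9326 CPM in the variant libraries and 8214 to 8365 CPM in the WT libraries. All 8 fibroblast and all 6 endothelial markers had means under 1 CPM, as had 3 of 6 melanocyte and 6 of 8 leukocyte markers. The WT library of letter A stood apart from the other 3 libraries of its letter for a set of genes described below. In WT A, 87 of 9584 genes with a mean of 5 CPM or more lay at least 1 log2 unit under the median of the letter, against 2 to 35 in the variant libraries of letter A. In WT B there were 169 such genes, against 23 to 43 in the variant libraries of letter B. At least 1 log2 unit above the median of the letter lay 192 genes in I593T B and 135 in N737H B, against 31 each in R820W B and WT B and 3 to 22 in the libraries of letter A. For many of the named genes, log2 fold changes are therefore also given with 1 or the other WT library left out.

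CARD14 RNA was present in every library and did not lie on 1 side of WT. In letters A and B it was at 1189 and 1411 CPM with R820W, 444 and 1005 with N737H, and 499 and 1396 with I593T, against 1127 and 978 with WT. The N737H and I593T libraries of letter A were thus the lowest of the 8. The log2 fold change of the mean of the variants over WT was -0.26 ± 0.31 (SE, 6 variant and 2 WT libraries). Leaving out WT A gave 0.39, and leaving out WT B gave -0.77. MYC was at 738 ± 62.5 CPM with the variants (SD, n = 6) and 742.5 ± 1.95 CPM with WT (SD, n = 2). Its log2 fold change was -0.01 ± 0.11 (SE), with a 95% interval of -0.26 to 0.24, and its 6 comparisons were mixed. This depended on the scaling of the libraries. Scaled by total counts alone, MYC lay above WT in all 6 comparisons, with a log2 fold change of 0.078.

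No gene passed the test of the mean of the 3 variants against WT. At an adjusted p under 0.05 in edgeR's quasi-likelihood test with the letter as a block, 0 of 14918 genes (0%) were called. At an unadjusted p under 0.05 there were 523 genes (3.51%), 165 higher with the variants (1.11%) and 358 lower (2.4%). limma voom also called 0 genes, and DESeq2 called 3, which were CYR61, UBE2F-SCLY and CEACAM6. Without WT replicate B, edgeR called 46 genes, 36 of them higher with the variants. The genes on 1 side of WT are therefore described by their values and not as changed genes.

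Over all tested genes, 5.52% were above WT in all 6 comparisons and 9.08% below. The 3 variants of a letter share that letter's WT library, so their 3 comparisons move together. In letter A alone 4520 genes were above WT with all 3 variants and 5046 below, and in letter B alone 4190 were above and 4910 below. Fewer genes had all 6 variant libraries past both WT libraries, 370 above (2.48%) and 466 below (3.12%). No test was made of these counts, because the side of WT is what chose the genes.

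The differences were small for most of these genes. The 824 genes above WT had a median log2 fold change of 0.58, and their median gap, the smallest of the 6 within-letter log2 differences, was 0.10. The 1354 genes below WT had a median log2 fold change of -0.20 and a median gap of 0.06. A gap of at least 1.2-fold was found for 175 genes above WT and 30 below. On both sides most of these genes had a mean under 5 CPM, where values are least precise. At the edge of the rule the differences were minimal. C16orf55 counted as above although R820W B and WT B both stood at 17.72 CPM, and TMEM2 did not count because N737H A stood at 20.18 CPM against 20.19 CPM in WT A. LIPT1 counted as below with I593T A and WT A both at 10.94 CPM, and HOXA10 did not because I593T B stood at 36.5 CPM against 36.49 CPM in WT B.

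The 2 sides held genes of different abundance. Of the genes under 1 CPM, 10.5% were above WT and 2.45% below. Of the genes at 50 CPM or more, 0.884% were above and 21% below. This contrast also moved with the scaling of the libraries. Scaled by total counts alone, 1341 genes were above WT and 374 below (78.2% above), against 37.8% above under the trimmed mean of M values (TMM), since that scaling raised the log2 difference of the median gene by 0.15 in letter B and by 0.03 in letter A. Under all of 5 scalings, 819 genes lay above WT and 334 below. The numbers with a gap of at least 1.2-fold were 175 and 30, again mostly genes under 5 CPM. The side of genes with small differences thus depended on the scaling.

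**Figure D1:**
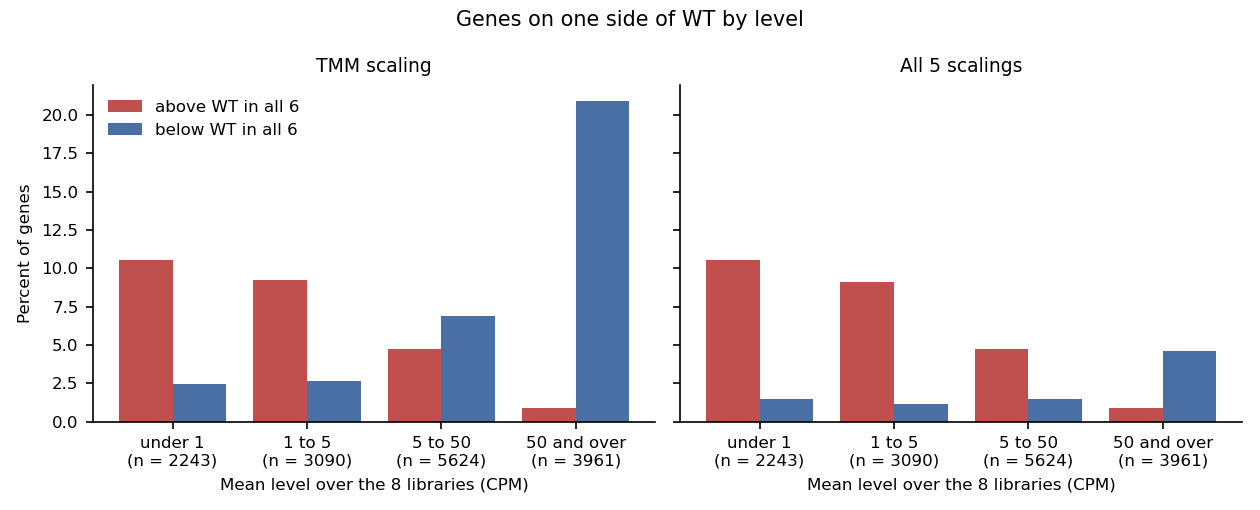
Share of tested genes above WT (red) and below WT (blue) in all 6 within-letter comparisons, as a percent of genes, by mean level in CPM, with TMM scaling on the left and under all 5 scalings on the right. Above WT the share is 10.5% under 1 CPM and 0.884% at 50 CPM and over. Below WT it is 2.45% and 21% with TMM scaling, and it is smaller at every level under all 5 scalings.

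Among genes with a mean of at least 5 CPM that lay above WT, CYR61 combined a high level with a wide gap. It encodes a secreted matricellular protein and is a textbook target of the growth regulator YAP. In letters A and B it was at 107 and 93.1 CPM with R820W, 86.2 and 149 with N737H, and 109.5 and 260.2 with I593T, against 57.1 and 45.5 with WT. All 6 variant libraries exceeded both WT libraries, and highest were I593T B and N737H B, the libraries with the most genes far above the median of their letter. The log2 fold change was 1.28 ± 0.33 (SE), 95% interval 0.51 to 2.04, with an edgeR adjusted p of 0.922. Leaving out WT A gave 1.79 and leaving out WT B 0.86. With the letter as a block, DESeq2 gave an adjusted p of 0.0407. Over all alternatives the adjusted p ran from 0.0407 to 1. In bulk RNA of sorted cells, fewer cells that express a gene and less RNA per cell cannot be told apart, here and in all results that follow.

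TSPAN4, a tetraspanin membrane protein, had the same order of libraries in letter B. It was at 8.399 and 11.9 CPM with R820W, 8.88 and 23.5 with N737H, and 10.2 and 36.15 with I593T, against 6.04 and 5.70 with WT. Its log2 fold change of 1.23 ± 0.38 (SE) became 1.96 when WT A was left out and 0.63 when WT B was. In letter A the 3 variants thus lay close together, while in letter B they were spread out with I593T highest.

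Other genes above WT had smaller and more even differences. FAM83D, a protein of the mitotic spindle, averaged 46.9 ± 11.4 CPM with the variants (SD, n = 6) and 29.4 ± 2.63 CPM with WT (SD, n = 2), with no overlap between the groups. NUAK1, a kinase related to AMPK, was at 6.63 and 3.91 CPM with R820W, 10.5 and 6.10 with N737H, and 10.1 and 6.54 with I593T, against 4.17 and 3.23 with WT. The R820W library of letter B lay under WT A for this gene, so the groups overlapped. C19orf60, for which no role is given here, averaged 23.45 CPM with the variants and 15.25 CPM with WT, again without overlap.

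MRPL12, a subunit of the mitochondrial ribosome, averaged 98.5 ± 30.2 CPM with the variants and 63.0 ± 35.4 CPM with WT. The WT libraries differed widely, at 38.0 CPM in WT A and 88.0 CPM in WT B, and the log2 fold change of 0.71 was 0.44 without WT replicate A. HOOK2, which links cargo to microtubules, and DAZAP1, an RNA-binding protein, had log2 fold changes of 0.68 and 0.58. The transcript models AK097957 and AL832891, which carry no gene name in the table, had 1.22 and 1.75. AL832891 had 2.65 when WT A was left out and 1.10 when WT B was. Both had all variant libraries above both WT libraries, at means of 7.02 and 6.59 CPM with the variants and 2.91 and 1.77 CPM with WT. The adjusted p was 0.922 in edgeR's quasi-likelihood test for each of the 10 genes of smallest p.

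**Figure D2:**
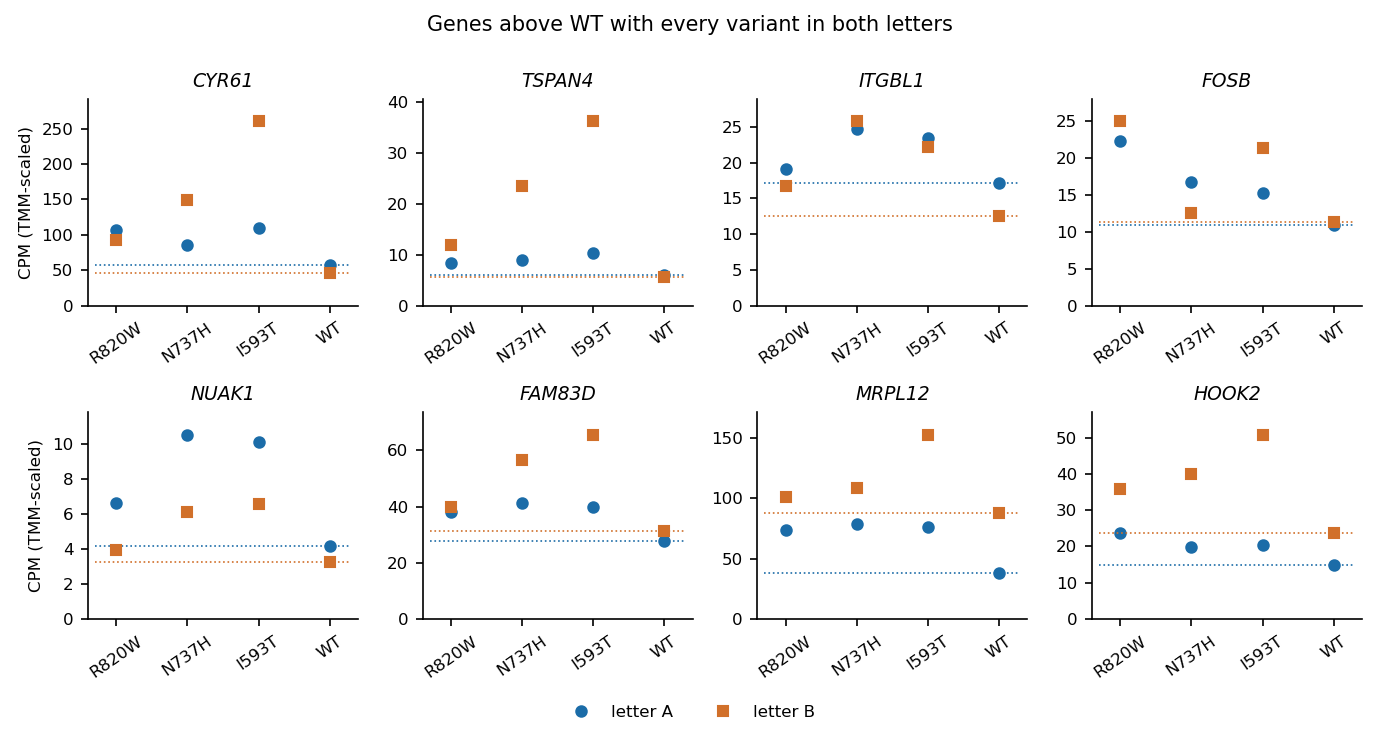
TMM-scaled CPM (linear axes from 0) of 8 genes above WT in each library, by group from left to right, with circles for letter A and squares for letter B. Dotted lines mark the WT library of each letter, and every variant point lies above the line of its own colour. CYR61, TSPAN4, FAM83D and FOSB have all variant points above both lines.

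Among genes below WT, the aldo-keto reductase gene AKR1C1 had the smallest p of all genes tested. Aldo-keto reductases of this group reduce steroids and reactive carbonyls. In letters A and B AKR1C1 was at 13.55 and 10.8 CPM with R820W, 9.70 and 7.13 with N737H, and 9.05 and 6.83 with I593T, against 18.3 and 13.9 with WT. All 6 variant libraries lay below both WT libraries, R820W the least so. The log2 fold change was -0.79 ± 0.13 (SE), 95% interval -1.09 to -0.48, with an edgeR adjusted p of 0.922, and with each library left out it ran from -0.82 to -0.75. Reads of AKR1C1 can be shared with its close copies AKR1C2 and AKR1C3, so the split between them is uncertain.

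CEACAM6, a cell-surface adhesion glycoprotein, was the other gene below WT with an unadjusted p under 0.0005 in edgeR and was the only one below WT that DESeq2 called (adjusted p = 0.0055, range over all alternatives 0.0055 to 1). It was at 34.8 and 70.0 CPM with R820W, 11.8 and 39.7 with N737H, and 19.0 and 50.9 with I593T, against 46.75 and 88.1 with WT. Within each letter N737H was lowest and WT highest. Every group stood higher in letter B than in letter A, so variant and WT libraries overlapped. The log2 fold change was -0.99 ± 0.16 (SE), with -0.75 when WT A was left out and -1.20 when WT B was.

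SPRR1A and SPRR1B, which encode small proline-rich precursors of the cornified envelope, lay below WT together. SPRR1A was at 7.04 and 11.1 CPM with R820W, 2.38 and 4.38 with N737H, and 4.63 and 3.86 with I593T, against 8.84 and 12.7 with WT. SPRR1B was at 25.8 and 19.8 CPM with R820W, 8.93 and 10.8 with N737H, and 12.9 and 18.8 with I593T, against 29.9 and 21.8 with WT. For both genes R820W stood close under WT and N737H far under it, and I593T lay nearer to N737H for SPRR1A. The log2 fold changes were -1.08 ± 0.22 and -0.76 ± 0.21 (SE), and SPRR1B was no longer below WT in all 6 comparisons under total-count scaling. SPRR1B had -0.44 when WT A was left out and -1.02 when WT B was.

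The promoters of these genes are shown because the 2 SPRR1 genes lay below WT together and because CEACAM6 carries the letters that MYC binds. Each is the 250 bases before the gene's start in RefSeq, build GRCh38.p14, plus strand, whereas the counts were made on another build. Capitals mark matches on either strand to 5 motifs, the E-box CACGTG, the AP-1 letters TGANTCA, the TEAD letters GGAATG, an NF-kB motif and the antioxidant response letters TGACNNNGC.
SPRR1A promoter, chr1:152983831-152984080: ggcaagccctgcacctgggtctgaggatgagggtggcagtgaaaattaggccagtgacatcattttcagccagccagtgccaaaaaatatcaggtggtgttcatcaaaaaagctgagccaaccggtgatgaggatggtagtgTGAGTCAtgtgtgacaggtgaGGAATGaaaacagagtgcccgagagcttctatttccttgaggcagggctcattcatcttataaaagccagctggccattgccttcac
SPRR1B promoter, chr1:153030953-153031202: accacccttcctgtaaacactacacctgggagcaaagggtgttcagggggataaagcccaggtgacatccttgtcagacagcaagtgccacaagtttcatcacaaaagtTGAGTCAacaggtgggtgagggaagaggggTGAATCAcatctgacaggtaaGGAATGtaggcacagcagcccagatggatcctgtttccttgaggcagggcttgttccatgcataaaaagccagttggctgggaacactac
CEACAM6 promoter, chr19:41755280-41755529: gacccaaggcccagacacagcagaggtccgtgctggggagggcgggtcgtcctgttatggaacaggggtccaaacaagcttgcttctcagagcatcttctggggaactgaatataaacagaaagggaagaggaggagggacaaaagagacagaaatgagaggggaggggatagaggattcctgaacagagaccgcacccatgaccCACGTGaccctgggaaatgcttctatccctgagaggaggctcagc
The AP-1 letters begin 108 bases before the start of SPRR1A and 141 and 111 bases before that of SPRR1B, and the TEAD letters follow at 87 and 90 bases. The E-box of CEACAM6 begins 45 bases before its start. Among the named genes the E-box was also in the promoters of ITGA6 and HSP90B1, below WT, and of TNFAIP3, which was mixed. The promoter of AKR1C1 held none of the 5 motifs. Binding of MYC was not tested. Over the 10763 tested genes with a promoter in the table, 4.4% held the AP-1 letters, 9.5% the TEAD letters and 8.9% the E-box. Of the promoters of genes above WT 5.6%, 9.5% and 8.6% held them, and of those below WT 4.8%, 9.2% and 9.4%, so both sides were near the share of all promoters. The NF-kB motif was in 0.7% of promoters above WT, 1.0% below and 1.4% of all, and the antioxidant response letters in 13.2%, 11.6% and 12.1%.

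Several other genes below WT shared the order of CEACAM6 and SPRR1A. DHRS9, a dehydrogenase of retinoid and steroid metabolism, had a log2 fold change of -0.86 ± 0.15 (SE), with -0.31 for R820W, -1.32 for N737H and -0.96 for I593T. PTAFR, the receptor of platelet-activating factor, had -0.59 ± 0.11 (SE), with -0.12, -0.90 and -0.76 for the variants in the same order. PTAFR was no longer on 1 side under 3 of the 5 scalings, since R820W A stood at 37.3 CPM against 38.0 CPM in WT A. The receptor-type phosphatase PTPRE was at 29.2 and 30.8 CPM with R820W, 25.6 and 19.3 with N737H, and 28.6 and 24.3 with I593T, against 51.4 and 34.9 with WT, without overlap. PTPRE had a log2 fold change of -0.71, with -0.51 when WT A was left out and -0.87 when WT B was.

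The other 4 of the 10 genes of smallest p below WT had smaller differences or a wide spread between letters. SERINC5, a membrane protein known for restricting retroviruses, averaged 61.7 ± 5.57 CPM with the variants (SD, n = 6) and 84.5 ± 1.14 CPM with WT (SD, n = 2), and its groups did not overlap. YPEL5 averaged 33.8 ± 4.69 CPM with the variants and 47.7 ± 3.38 CPM with WT, also without overlap, with log2 fold changes of -0.27 for R820W, -0.63 for N737H and -0.62 for I593T. FYB, an adaptor protein best known from T cells, averaged 163 ± 26.1 CPM with the variants and 220.0 ± 49.9 CPM with WT, and its difference was -0.38 in letter A and -0.48 in letter B. The model AK298056 completed the 10 genes of smallest p, at 26.7 ± 9.70 CPM with the variants and 46.3 ± 24.1 CPM with WT, and here R820W was furthest from WT (-1.05, against -0.64 for N737H and -0.63 for I593T). Each of these had an edgeR adjusted p of 0.922.

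**Figure D3:**
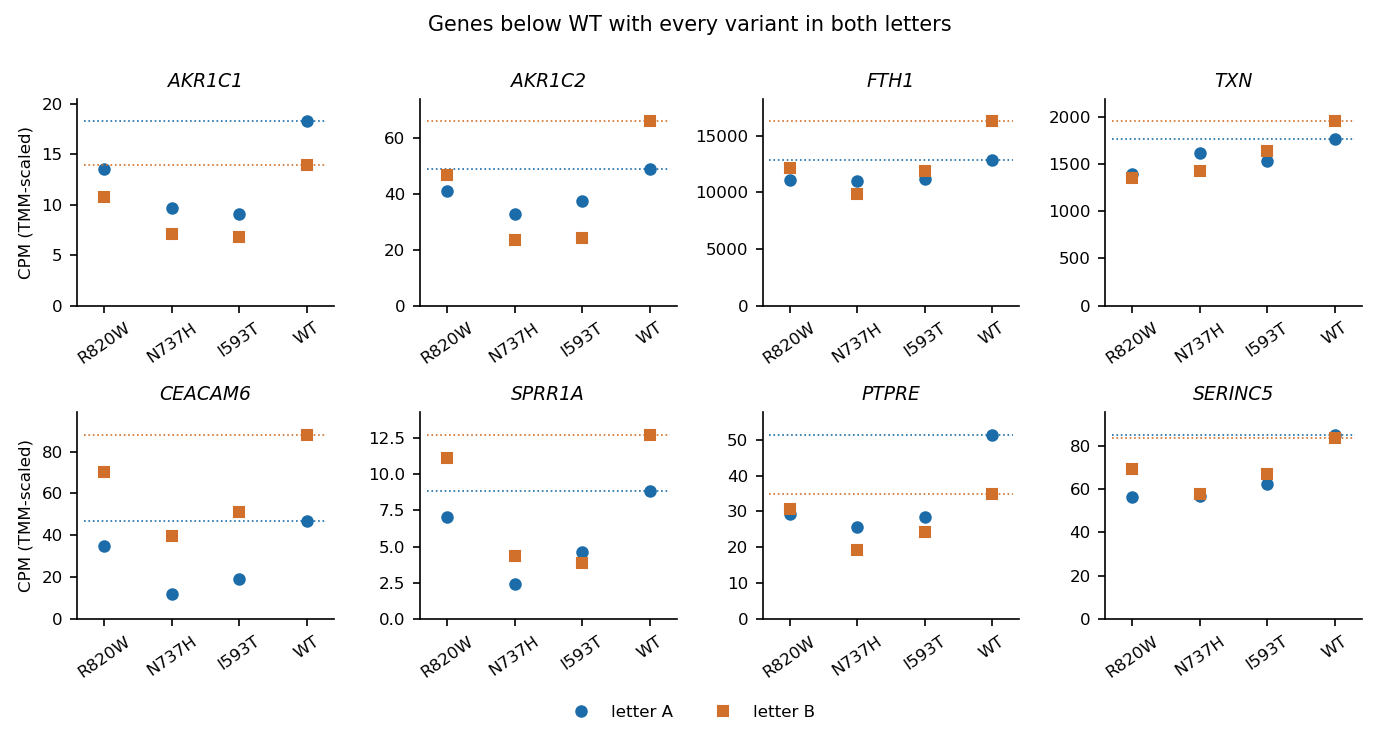
TMM-scaled CPM (linear axes from 0) of 8 genes below WT in each library, by group from left to right, with circles for letter A and squares for letter B. Dotted lines mark the WT library of each letter, and every variant point lies below the line of its own colour. CEACAM6 and SPRR1A show R820W nearest to WT in both letters, whereas SERINC5 and TXN do not.

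The gene groups were read against the background of 5.52% above and 9.08% below over all genes, and against the shares at their level, since 21% of genes at 50 CPM or more lay below WT. The group with the highest share below WT was that of CEACAM, serpin and protease genes, with 6 of 21 members (28.6%) below and 0 above. These were SERPINB5, PLAUR, SERPINB8, CEACAM6, SERPINB3 and SERPINB4. SERPINB5 (maspin) is an inhibitor-family protein without protease-inhibiting activity, and PLAUR is the urokinase receptor. The group's median log2 fold change was -0.29, against -0.01 over all genes tested, and 20 of its 21 members had a value below 0. Its median level was 62.6 CPM, where the background below WT is the 21% of abundant genes. The median was -0.28 in letter A and -0.48 in letter B. SERPINB3 was at 14.3 and 57.6 CPM with R820W, 11.35 and 22.4 with N737H, and 12.3 and 18.8 with I593T, against 17.95 and 80.1 with WT. Every group thus stood higher in letter B than in letter A, and reads of SERPINB3 and its near copy SERPINB4 can be shared. Under all 5 scalings CEACAM6, SERPINB3 and SERPINB4 stayed below.

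Of the targets of NRF2, the transcription factor of the antioxidant response, 5 of 24 (20.8%) lay below WT and 0 above, and 4 of these had no overlap between the groups. The 5 were FTH1, TXN, NQO1, AKR1C2 and AKR1C1. Over all tested genes, 3.12% lay below WT without overlap. By level these were 296 of 3961 genes at 50 CPM or more and 122 of 5624 at 5 to 50 CPM. FTH1, the heavy chain of the iron store ferritin, was at 11110 and 12140 CPM with R820W, 10960 and 9825 with N737H, and 11150 and 11850 with I593T, against 12890 and 16260 with WT. Its difference was larger in letter B (-0.54, log2) than in letter A (-0.22), because WT B was the highest library. TXN, the thiol reductase thioredoxin, averaged 1493 ± 118 CPM with the variants (SD, n = 6) and 1856 ± 133 CPM with WT (SD, n = 2). AKR1C2 was at 40.9 and 46.7 CPM with R820W, 32.9 and 23.4 with N737H, and 37.4 and 24.2 with I593T, against 48.8 and 66.0 with WT. FTH1, TXN, AKR1C1 and AKR1C2 stayed below WT under all 5 scalings. The share of 20.8% is that of abundant genes (21%), and the list's median level was 72.5 CPM. FTH1 had a log2 fold change of -0.53 when WT A was left out and -0.20 when WT B was, and TXN -0.41 and -0.20. The list's median log2 fold change was -0.14, with 17 of 24 members below 0, and its median difference was -0.09 in letter A and -0.27 in letter B. Of other classic targets, GCLM had a log2 fold change of -0.13, SLC7A11 0.01 and TXNRD1 -0.30, all 3 mixed across the comparisons. FTH1 has processed copies in the genome, whose reads cannot be told apart here.

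Of the CARD14 signalling partners, 3 of 22 (13.6%) were below WT and 2 (9.09%) above. BCL10, the adaptor that CARD14 binds, was at 105 and 109.5 CPM with R820W, 106 and 94.1 with N737H, and 110.1 and 98.0 with I593T, against 140.7 and 126 with WT. All 6 variant libraries lay below both WT libraries by a similar amount, and the log2 fold change was -0.36 ± 0.10 (SE), 95% interval -0.58 to -0.14. The ubiquitin ligase TRAF6 had -0.22 ± 0.10 (SE) and the kinase PRKCD -0.16 ± 0.19 (SE), both without overlap, and MALT1 had 0.04 with mixed comparisons. The kinase PRKCE averaged 2.48 ± 0.13 CPM with the variants (SD, n = 6) and 1.55 ± 0.06 CPM with WT (SD, n = 2), all variant libraries above both WT libraries, with a log2 fold change of 0.67 ± 0.26 (SE). Under all 5 scalings BCL10 stayed below and PRKCE and SHARPIN above, although SHARPIN, a subunit of the linear ubiquitin ligase complex, had a gap of only 0.01.

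The targets of NF-kB were mostly mixed across the 6 comparisons. The cytokine and chemokine targets had a median log2 fold change of -0.22, with 15 of 23 below 0 and 7 at an unadjusted edgeR p under 0.05, none of which passed after adjustment. Their median difference was -0.38 in letter A and -0.11 in letter B. An unadjusted edgeR p under 0.05 was found for 3.51% of all tested genes. Across the other lists it was found for 0 of 14 NF-kB subunits and feedback genes up to 9 of 21 CEACAM, serpin and protease genes. Of cornified-envelope and late differentiation genes, 7 of 26 had it. Of these 23 cytokine and chemokine genes, 1 was below WT (4.35%) and 0 above, and of 14 NF-kB subunits and feedback genes 0 lay on either side. The 1 gene was CCL20, a chemokine for T cells and dendritic cells. It was at 11.2 and 9.73 CPM with R820W, 6.02 and 4.53 with N737H, and 8.01 and 6.93 with I593T, against 12.8 and 10.2 with WT. R820W stood just under WT and N737H lowest in both letters, and the log2 fold change was -0.63 ± 0.14 (SE), although it was no longer below in all 6 comparisons under total-count scaling. TNFAIP3, which shuts off NF-kB signalling, turned with the letter. In letters A and B it was at 343 and 223 CPM with R820W, 177.5 and 171.5 with N737H, and 255 and 231 with I593T, against 465 and 140.0 with WT. Its log2 fold change became 0.57 with WT A left out and -0.87 with WT B left out. Of 16 survival and adhesion targets 2 lay below WT, CD83 (-0.17 ± 0.11, SE) and the anti-apoptotic BCL2A1 (-0.85 ± 0.36, SE, at 1.33 CPM with the variants and 2.46 CPM with WT). Of CCL20, CD83 and BCL2A1, only BCL2A1 was below under all 5 scalings.

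MYC itself had near-equal means in both groups, and its network and targets had members on both sides. Of 12 network genes only MXD3, a MAX-binding antagonist of MYC, lay above WT, at 1.28 ± 0.21 CPM with the variants (SD, n = 6) and 0.71 ± 0.03 CPM with WT (SD, n = 2). Of 39 MYC targets of ribosome biogenesis and growth, 3 (7.69%) were above and 5 (12.8%) below. The 3 above were FBL, RRS1 and RRP9, which act in the nucleolus, and they stayed above under all 5 scalings. The 5 below, among them NPM1 (log2 fold change -0.18 ± 0.09, SE) and NOLC1 (-0.05 ± 0.09, SE), were not below under all 5. The list's median was -0.05, near the -0.01 of all genes tested.

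In the genes of differentiation, adhesion and the basal layer the shares below WT were near the 9.08% of all genes. They were not near the shares at their level. Of 26 cornified-envelope and late differentiation genes, 3 (11.5%) were below WT (SPRR1B, SPRR1A and the kallikrein KLK6) and 1 above (FLG2, under 1 CPM on average). The list's median level was 3.95 CPM, and 2.65% of genes at 1 to 5 CPM lay below WT. Its 3 members below had means of 5 to 50 CPM, where 6.88% lay below. The list's median log2 fold change was -0.33, with 21 of 26 members below 0, and its median difference was -0.20 in letter A and -0.41 in letter B. Desmosome and cell-junction genes had 8.33% below and basal and hemidesmosome genes 10.5%. Their median levels were 188 and 174.5 CPM, and 21% of genes at 50 CPM or more lay below. TP63, the master transcription factor of stratified epithelia, was at 349 and 444 CPM with R820W, 309 and 380 with N737H, and 296.5 and 362 with I593T, against 378 and 501 with WT. Its log2 fold change of -0.30 ± 0.09 (SE) was similar in both letters. CTNNA1, which ties cadherins to actin, had -0.27 ± 0.09 (SE) without overlap, with -0.35 when WT A was left out and -0.17 when WT B was. CDH1 and ITGA6 were below WT by gaps of 0.01 and 0.05 and were not below under all 5 scalings.

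Genes of matrix and TGF-beta responses had the highest share above WT, 4 of 28 (14.3%), with 0 below. ITGBL1, a secreted protein with integrin-like repeats, was at 19.1 and 16.8 CPM with R820W, 24.7 and 25.8 with N737H, and 23.4 and 22.2 with I593T, against 17.1 and 12.6 with WT. Its log2 fold change of 0.56 ± 0.14 (SE) was lowest for R820W (0.28) and highest for N737H (0.78). ITGBL1 had 0.76 when WT A was left out and 0.40 when WT B was. The other members above WT were ACTA2, LTBP2 and TNC, each under 1.5 CPM on average, a range in which 9.22% to 10.5% of all genes lay above WT. ACTA2 had a log2 fold change of 0.73, with 0.23 when WT A was left out and 1.33 when WT B was. The list's median was 0.10. Of 26 YAP targets CYR61 alone was above WT and 0 were below. The list's median was 0.01, with 11 of 26 members below 0, and the median difference was -0.20 in letter A and 0.23 in letter B. CTGF, its closest relative, had a log2 fold change of 0.60 and ANKRD1 0.89, both with mixed comparisons.

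Of 25 immediate-early genes, FOSB and JUNB, both subunits of AP-1, were above WT under all 5 scalings, and KLF10 was below under TMM but not under total-count scaling. FOSB was at 22.2 and 24.95 CPM with R820W, 16.7 and 12.5 with N737H, and 15.2 and 21.4 with I593T, against 10.9 and 11.3 with WT. Here R820W was highest, the groups did not overlap, and the log2 fold change was 0.73 ± 0.19 (SE).

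Of 22 p53 targets, 4 (18.2%) were below WT and 2 above (9.09%). The list's median level was 22.2 CPM, and 6.88% of genes at 5 to 50 CPM lay below WT. CDKN1A and MDM2, both below, had means over 50 CPM, where 21% lay below. CDKN1A encodes p21, which halts the cell cycle. It was at 356 and 329 CPM with R820W, 217 and 173 with N737H, and 262 and 273.5 with I593T, against 380.4 and 334 with WT. R820W lay just under WT in both letters (log2 fold change -0.06), and N737H was lowest (-0.88). MDM2 had a log2 fold change of -0.32 ± 0.12 (SE), with -0.17 when WT A was left out and -0.45 when WT B was, while the death receptor TNFRSF10B and the pro-apoptotic BAX were above WT. Neither CDKN1A nor MDM2 stayed below under all 5 scalings. The WT libraries differed for BAX, at 2.20 CPM in WT A and 11.25 CPM in WT B.

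Stress lists had members below WT by small amounts. Of 23 heat-shock and chaperone genes 4 (17.4%) were below, with HSPA5, the main chaperone of the endoplasmic reticulum, at -0.26 ± 0.10 (log2 fold change, SE), and -0.17 when WT A was left out. The list's median level was 566.5 CPM, and its share was under the 21% of abundant genes. Of 28 genes of the integrated stress response 4 (14.3%) were below, with the tRNA synthetases TARS at -0.15 (-0.08 when WT A was left out) and GARS at -0.20. The median level of the integrated stress response list was 84.5 CPM, and its share was also under the 21% of abundant genes. None of the 8 chaperone and stress response genes below WT was below under all 5 scalings. Of 29 glycolysis and hypoxia genes 3 were below. BNIP3L, a mitophagy receptor, averaged 56.1 ± 2.89 CPM with the variants and 71.2 ± 1.69 CPM with WT without overlap. NDRG1 had a log2 fold change of -0.72 ± 0.16 (SE), with -0.91 when WT A was left out and -0.48 when WT B was.

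In 4 of the larger lists few members lay on 1 side, and the median difference changed sign between the letters. Cytosolic ribosomal protein genes had a median difference of 0.23 in letter A and -0.31 in letter B, and 2 of 78 (RPL7 and RPL6) were below WT. Nuclear respiratory-chain genes had 0.22 and -0.36, with 1 of 33 (CYC1) above. Interferon-stimulated genes had 0.38 and -0.19, with 1 of 45 (DTX3L) below, and proliferation genes 0.21 and -0.18, with CDC6 and MCM6 of 35 below. Of these, RPL7, RPL6 and CYC1 kept their side under all 5 scalings. RPL6 had a log2 fold change of -0.30 when WT A was left out and -0.06 when WT B was, and CYC1 1.41 and 0.25. The 14 antimicrobial and alarmin genes all had a log2 fold change below 0, with a median of -0.29, but none was below WT in all 6 comparisons, since the median difference was 0.04 in letter A and -0.60 in letter B. None of 5 stress keratins lay on 1 side, and of 29 sterol and fatty-acid synthesis genes 2 (6.9%) were above and 3 (10.3%) below.

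**Figure D4:**
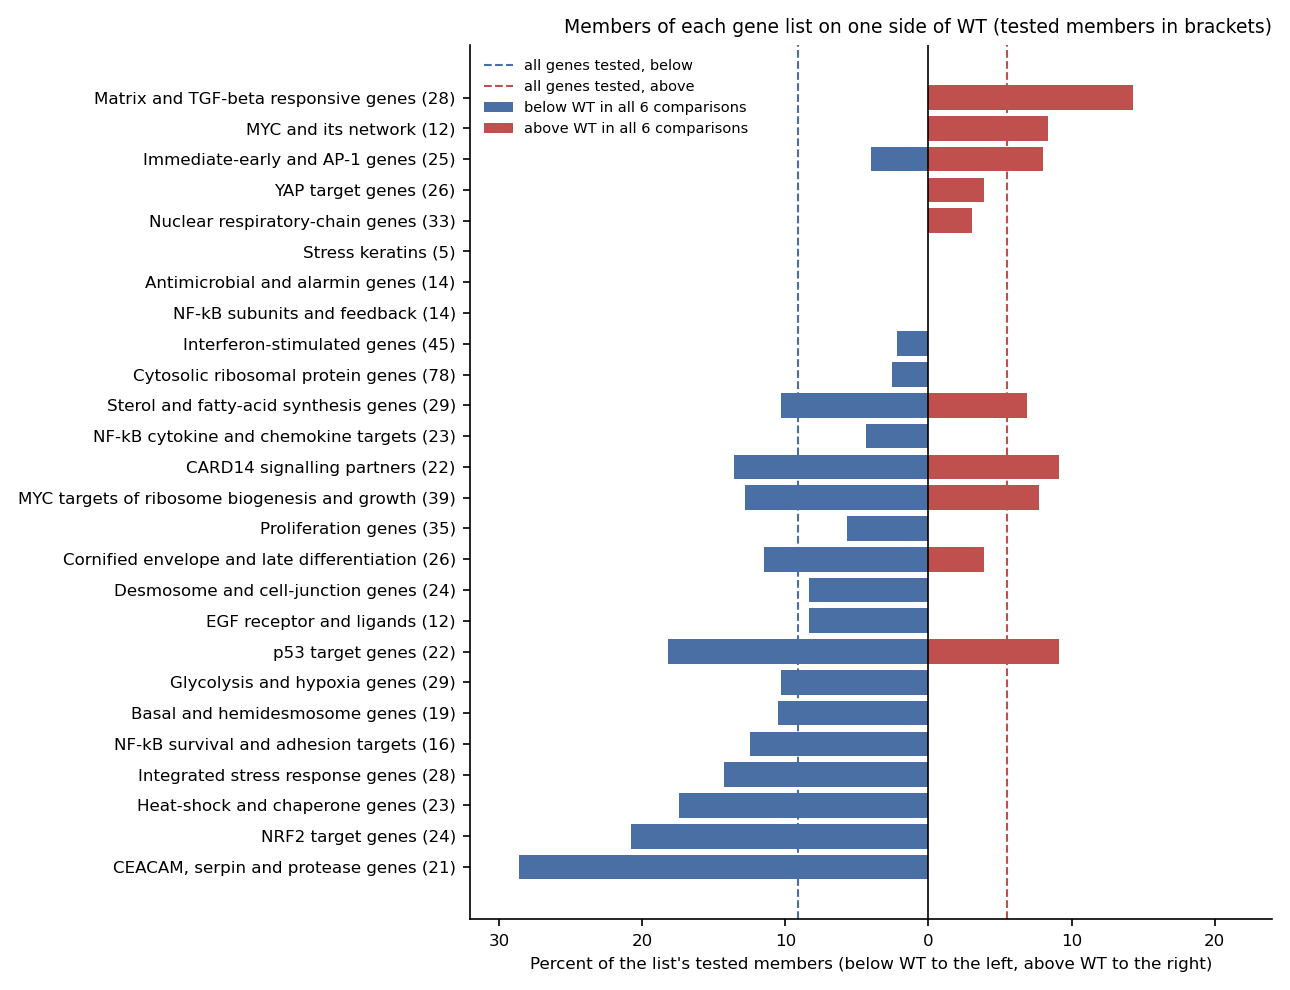
Percent of each list's tested members below WT (bars to the left) and above WT (bars to the right) in all 6 comparisons, with the number of tested members in brackets. Dashed lines mark all genes tested, 9.08% below and 5.52% above. CEACAM, serpin and protease genes reach 28.6% below and NRF2 targets 20.8%, where 21% of all genes at 50 CPM or more lie below, and matrix and TGF-beta responsive genes reach 14.3% above.

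The 3 variants were also compared among themselves. The test of any difference among the variants has no WT library in its contrast, but all 8 libraries entered its fit. In this test 1 gene passed (0.0067%). It was CCL4L2, a chemokine gene of the CCL4 cluster, at 69.5 and 21.5 CPM with R820W, 8.35 and 3.69 with N737H, and 9.57 and 4.66 with I593T, against 18.1 and 8.01 with WT. R820W lay above WT and the other variants below it in both letters, so that the mean of the variants was level with WT (log2 fold change -0.09). The edgeR adjusted p among variants was 0.0303. CCL4L2 was not called with no replicate block, nor with R820W A, R820W B, N737H A, I593T A or I593T B left out. CCL4L2 is a near-identical copy of CCL4, and reads of the copies can be shared.

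Among the 10 genes of smallest p below WT, R820W was the variant closest to WT for 8 and N737H the furthest for 7. Of these 10, 6 had an unadjusted p among variants under 0.05 (AKR1C1, CEACAM6, DHRS9, PTAFR, YPEL5 and SPRR1A), against 324 of 14918 genes tested (2.17%), and none passed after adjustment. Both tests use the same estimate of each gene's spread, so a gene picked for a small p in one tends to have a small p in the other. R820W was also closest to WT for 8 of the 10 genes above WT, of which 2 had an unadjusted p among variants under 0.05 (NUAK1 and DAZAP1). Over all genes on 1 side, the medians were close to each other. Above WT they were 0.49 for R820W, 0.64 for N737H and 0.52 for I593T, and below WT -0.20, -0.20 and -0.19.

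The difference from WT itself differed between letters for 21 genes (0.141%), in edgeR's test of letter by variant status at an adjusted p under 0.05. With 1 WT library per letter, this test sets single WT libraries against the spread among the variants, so it cannot tell a difference between letters from 1 deviating WT library. The count was 8 to 310 with a variant library left out, 310 without R820W B, 216 without I593T B, 11 without N737H A and 8 without I593T A. All 21 were lowest in WT A among the libraries of letter A, and 19 of them had variants above WT in letter A and below it in letter B. TMED9, a cargo receptor of the early secretory pathway, was at 333 and 328 CPM with R820W, 364 and 291 with N737H, and 358 and 372 with I593T, against 55.7 and 412 with WT. The variant libraries of both letters thus lay close together, and WT A was far under them. ERH, a small nuclear protein, was at 305 and 376 CPM with R820W, 418 and 358 with N737H, and 366 and 414 with I593T, against 74.55 and 459.7 with WT. Of the 21 genes, LMNB1 and MDFI were also above WT in all 6 comparisons. LMNB1, a lamin of the nuclear envelope, was at 77.65 to 182 CPM in the variant libraries, against 18.8 and 117 CPM in WT A and B.

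**Figure D5:**
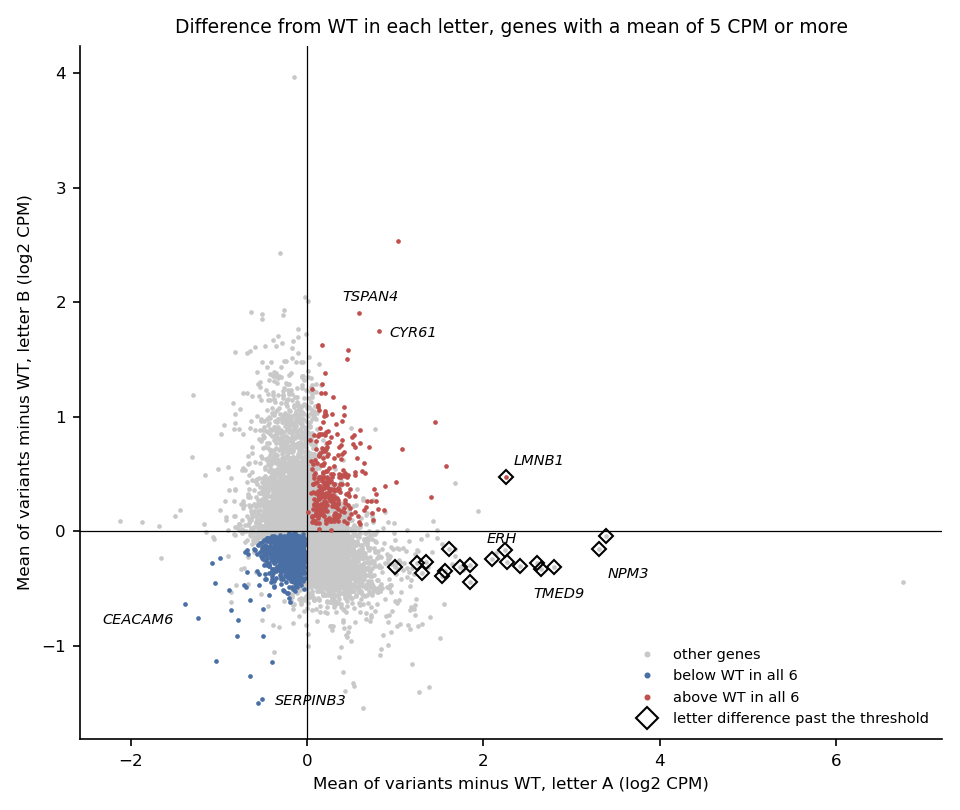
Mean of the 3 variants minus WT in letter A (x axis) and letter B (y axis), in log2 CPM, for genes with a mean of 5 CPM or more. Red and blue points are genes above and below WT in all 6 comparisons, and grey points are other genes. Diamonds mark genes whose difference from WT differed between letters, which lie at about 1 or more in letter A, and all but LMNB1 lie under 0 in letter B.

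Base composition moved with these results. Among same-side genes at 5 CPM or more with a matched transcript, the median GC content was 52.1% for 286 genes above WT and 43% for 1198 below, against 46.7% over all 9269. The genes of the letter difference had a median of 55.9%. A library's deviation from the other 3 of its letter also varied with GC across genes. Spearman's rho, given as a description, ran from -0.48 in N737H B to 0.48 in R820W A, and was -0.35 in WT A and 0.15 in WT B. A fit with each library's trend on GC and transcript length removed, chosen after seeing the data, gave 612 genes above WT and 1652 below of 13310. With only these 13310 genes used and the trend left in, 873 lay above WT and 784 below. Of the 674 genes above WT in the TMM-scaled data that had a matched transcript, 457 were among those 612, and of the 1309 below, 889 were among those 1652. The 674 and 1309 come from the scaling over all tested genes, so this overlap may also carry a change of scaling. The log2 fold changes were 1.25 for CYR61, 0.60 for ITGBL1, -0.77 for AKR1C1, -0.99 for CEACAM6 and -1.31 for SPRR1A, and CDKN1A, CCL20, SPRR1B, SERPINB5, NPM1, NOLC1, HSP90B1 and RPL7 were no longer below WT in all 6 comparisons, nor CYC1 above.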

How the data were processed

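RNA from 8 libraries of sorted, plasmid-transfected CARD14-knockout HaCaT cells was compared. The authors deposited raw counts for each gene as whole numbers, without normalization. The submitters' processing notes name hg19, FastQC, MACS2 and DESeq2. No source used here gives the aligner, counter, annotation or strand setting, so reads of near-identical genes may be split in an unknown way. Of 28518 rows, 5569 had no count in any library, 27 names had been turned into dates, and 2 names occurred more than once. Each library held 17892608 to 24629860 counts, and genes with few counts have the least precise values.

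Genes with 10 or more counts in at least 2 libraries were scaled by TMM and fitted with edgeR 4.0.16 in R 4.3.3 (quasi-likelihood test, group means with the letter as a block, Benjamini-Hochberg adjustment over 14918 genes, two-sided, threshold 0.05). A prior count of 2 was used for the log2 CPM of gaps and within-letter differences, and not for the fitted log2 fold changes. The contrast was the mean of the 3 variants minus WT. Residual degrees of freedom were 3. A second contrast tested any difference among variants, and a second fit tested letter by variant status. CPM were computed from the deposited counts with TMM-scaled totals. limma 3.58.1 and DESeq2 1.42.0 were alternatives, as were 2 other scalings, other count filters, each variant or library left out, and, chosen after seeing the data, removal of GC and length trends and the count under all of 5 scalings. The steps were tested on simulated counts.

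The letters are read as a block because the rule of the comparison pairs libraries by letter. The series speaks of 2 independent experiments, and the labels do not say in words that the letters mark them. If the letters do not, p-values reflect only how these libraries vary, which may be technical. The closest pair of libraries had a chi-square of 6.27 per gene, so no library was a copy of another.

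Genes named in the text are CARD14, MYC, the 10 genes of smallest p on each side with a mean of 5 CPM or more, the 3 with the widest gap on each side, and up to 2 members per list. One result of the letter difference is not reported here. Other members on 1 side of WT, and classic members such as GCLM, SLC7A11, TXNRD1, CTGF and ANKRD1, were named after their values were seen, as were UBE2F-SCLY, LMNB1, MDFI and the genes at the edge of the rule. The members and lists were chosen with earlier results of these data known. Promoters came from RefSeq (GRCh38.p14), which matched 47 of 66 named genes by symbol or by another name. For CDH1 and CYC1 this gave the promoters of other genes, FZR1 and CCNI. The motif shares over all promoters may include more such mismatches.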

Additional observations from a re-analysis of the deposited data

Results flagged for a closer look

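The difference of the variants from WT differed between letters for TMED9 and ERH beyond the spread among the variants, with 1 WT library per letter. As letter B minus letter A on the log2 scale it was -2.98 for TMED9, with an adjusted p of 0.00164 in edgeR's quasi-likelihood test. For ERH it was -2.55 (edgeR adjusted p = 0.00861). In both genes WT A was the lowest of the 8 libraries, and without it the mean of the variants lay below WT.

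CCL4L2 differed among the variants, with an edgeR adjusted p of 0.0303, a call that was lost with no replicate block and with R820W A, R820W B, N737H A, I593T A or I593T B left out. R820W was above WT in both letters, and N737H and I593T were below it in both. The log2 fold changes over WT were 1.70 for R820W, -1.12 for N737H and -0.86 for I593T.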

How the results depend on the processing

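In the test of the mean over variants, edgeR called 0 genes under the other scalings, count filters and variant sets and without any library except WT replicate B, where it called 46 (0 to 46 over the libraries left out). DESeq2 called 3, 24 among variants and 651 for the letter difference. The letters may pair the libraries, but same-letter deviations correlated at 0.021 between WT and N737H and at 0.3 to 0.41 for the other pairs of groups, so the pairing was not uniform. With no replicate block, 0 genes were called for the mean (195 at an unadjusted p under 0.05, against 523) and 0 among variants.

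Among variants 0 to 2 genes were called with a library left out and 2 with no filter on counts. For the letter difference these were 8 to 310, and 273, and the trend fit with the block gave 37. That test could not be fitted without either WT library.

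Leaving out a library or a variant also removes comparisons from the rule. With a variant library left out, genes above WT numbered 935 to 1203 and those below 1314 to 1918. Without a WT library only the other letter remains. That gave 4190 above and 4910 below without WT A, and 4823 above and 4651 below without WT B. Total counts gave 1341 above and 374 below, 10 counts in 6 libraries 809 below, and genes with a matched transcript 784 below. Leaving out R820W gave 1320 above, N737H 1531 above and 2052 below, and I593T 1315 above.

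Of log2 fold changes under all alternatives, 1486 kept their direction and side of the threshold. MYC changed sign to 0.078 (total counts), 0.029 (10 counts in 6 libraries), 0.030 (matched transcripts) and 0.037 (without N737H), and ran from -0.068 to 0.049 with a library left out. Total counts gave NOLC1 0.037, HSP90B1 0.014 and SQLE 0.000428. CCL4L2 was 0.50 with variants as 1 group, 0.42 without N737H and 0.29 without I593T, and -0.20 to 0.0062 with a library left out. KRT17 was 0.013 without N737H. With a library left out CARD14 ran from -0.77 to 0.39, TNFAIP3 from -0.87 to 0.57, TMED9 from -0.32 to 2.68, ERH from -0.26 to 2.29 and HMGB1 from -0.23 to 0.057, with 1 or the other WT library left out at each end. Of these, TMED9 and ERH passed the edgeR threshold without WT replicate B. Where not evident from fewer genes or libraries, the cause was not tested. Depth limits genes under 1 CPM most.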

Other observations

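Among abundant genes, the side below WT also held genes outside the lists, chosen here after their values were seen. In the set at 50 CPM or more, all 6 variant libraries lay below both WT libraries for 296 genes and above both for 8, of 3961 tested. Of genes under 1 CPM the numbers were 17 below and 128 above, of 2243. These counts are with TMM scaling. Of the genes at 50 CPM or more that lay on 1 side within letters, 830 were below WT with TMM scaling and 182 under all 5 scalings, and 35 were above in both cases.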
